A study of Arabidopsis thaliana with 34 samples.

Results

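Homozygous seedlings of the pAP146 deletion line of *Arabidopsis thaliana* were compared with leaves of sibling plants. The comparison took 8 of the 34 RNA-seq samples of the study, chosen by their labels alone: 4 samples of homozygous T3 seedlings and 4 samples of sibling control leaves from the same T3 line. All plants were in the Col-0 accession. The pAP146 construct carried *Staphylococcus aureus* Cas9 under an egg-cell-specific promoter and a pair of guide RNAs that flank a duplicated block on chromosome 3. The homozygous plants lacked the block on both chromosomes, and the siblings served as controls without the deletion. Heterozygous leaves (3 samples), Col-0 leaves (4 samples) and Col-0 seedlings of the time-of-day experiment (4 evening and 3 morning samples, each a pool of seedlings from plates) were used only to read this comparison. All homozygous samples descend from 1 line, T3 plants can still carry the T-DNA with the nuclease, and homozygous plants were delayed in development and sterile, so whole seedlings were collected in place of leaves. Genotype and organ therefore change together between the groups and cannot be told apart from these 8 samples. The leaf samples came from individual plants by the study's methods, and the sources used here do not say so of the homozygous seedling samples, so p-values measure only the spread between these samples.

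A flowering plant seedling holds organs that a leaf sample lacks. Root hairs take up water and ions, the endodermis seals the root with the Casparian strip and suberin, and the shoot apical meristem is kept undivided into organs by KNOX homeobox proteins. Mature leaves instead devote much of their mRNA to the light-harvesting antenna, the photosystems and Rubisco. Leaves also run defence hormone programmes that often oppose each other, salicylic acid against biotrophic pathogens and jasmonate against chewing insects and necrotrophs. RNA of a whole organ is a sum over its cells, so fewer cells of a type and less RNA per cell cannot be told apart in any result below.

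The spacers of the guide pair are shown because they fix which genes are lost. Each is given 5′ to 3′ on the plus strand with the protospacer adjacent motif (PAM), the short motif the nuclease needs, in capitals. Both matched chromosome 3 of the TAIR10.1 assembly, spacer 1 at positions 14955281 to 14955301 and spacer 2 at 15639150 to 15639170. The junction that joins the outer flanks, with cuts 3 bases from each PAM and no bases lost or gained, is a prediction from the reference and not a read, and its capitals mark the bases right of the join.
spacer 1: gcgatgagaaaccttcatctaCAGGGT
spacer 2: gaaggcatagttgtcccatatTTGGGT
predicted junction: atgagaaaccttcatTATTTGGGTTTTGAT

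The predicted cuts lie after base 14955298 and before base 15639168, which removes 683869 bases or 2.92% of the chromosome. The stretch holds 59 whole listed transcripts, 8.63 per 100 kb against 23.3 per 100 kb over chromosome 3. A receptor-like kinase gene, *PRK3* (AT3G42880), is cut by the left break and keeps 37.4% of its 1902 coding bases. Together these are the 60 genes listed by the study for the deletion.

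The deleted genes were checked first, since they test the labels. Their summed level was 0.0719 to 0.154 TPM, the share of a library's transcripts after correction for length, in the 4 homozygous samples and 231 to 279 TPM in the 4 sibling samples, so the groups lay far apart. The means were 0.116 ± 0.0337 TPM in homozygous and 248 ± 20.9 TPM in sibling samples (SD, n = 4 each), a log2 ratio of -11.06, and a 2-sided exact permutation test over the samples gave p = 0.0286, the smallest that 4 against 4 samples allow. Heterozygous leaves held 118 to 134 TPM, below all sibling samples and above all homozygous ones. Of the 60 genes, 51 had no read in any homozygous sample, and the largest estimated count of a wholly deleted gene in a homozygous library was 5. In sibling leaves 33 of the 60 genes also had no read, so the loss of those genes could not be measured in this organ. The filter on low counts passed 18 of the 60 genes, each only through its level in leaves, and all 18 were called lower. Over the whole genome 27.8% of 20833 tested genes were called lower (adjusted p under 0.05 in edgeR's quasi-likelihood test), and the count is printed here as a check of the genotype.

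The deleted genes with the highest leaf levels are given first, and some at lower levels after them. *LTPG2* (AT3G43720), a GPI-anchored lipid transfer protein of the cuticle, was at 104, 84.1, 112 and 101 TPM in siblings and had no read in any homozygous sample, at least 672-fold lower with the floor set at 3 counts per library. AT3G43520, a transmembrane protein of the 14C type, was at 37.5 to 42.1 TPM in siblings and had reads in 1 homozygous sample, at 0.0296 TPM. AT3G43540, a DUF1350 protein, was at 25.9 to 29.7 TPM and at least 434-fold lower in the mutant. These values show a step from a full level to none with no overlap between samples. The next highest sibling means were 10.5 TPM for AT3G43230, a RING/FYVE/PHD-type zinc finger gene, 8.26 TPM for AT3G43220, a phosphoinositide phosphatase gene, and 8.19 TPM for AT3G43590, a zinc knuckle gene. *JAZ11* (AT3G43440), a repressor of jasmonate signalling, was at 6.54 to 9.42 TPM in siblings and had no read in homozygous seedlings, at least 68.0-fold lower. *ATMIN7* (AT3G43300), an ARF guanine nucleotide exchange factor that the bacterial effector HopM1 targets, was at 5.11 to 8.39 TPM in siblings and at most 0.00624 TPM in the mutant. *AAO2* (AT3G43600), an aldehyde oxidase, was at 2.38 to 3.52 TPM in siblings and *BPM6* (AT3G43700), an adaptor of CUL3 ubiquitin ligases, at 2.38 to 3.71 TPM. *TES* (AT3G43210), a kinesin needed for cytokinesis of male meiocytes, was at 1.05 to 1.3 TPM in sibling leaves. *SUS4* (AT3G43190), a sucrose synthase, was at only 0.0404 to 0.0987 TPM in leaves. Among the 17 deleted genes with at least 1 TPM in siblings, the ratio of heterozygous to sibling level ran from 0.458 to 0.649 with a median of 0.552.

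**Figure D1:**
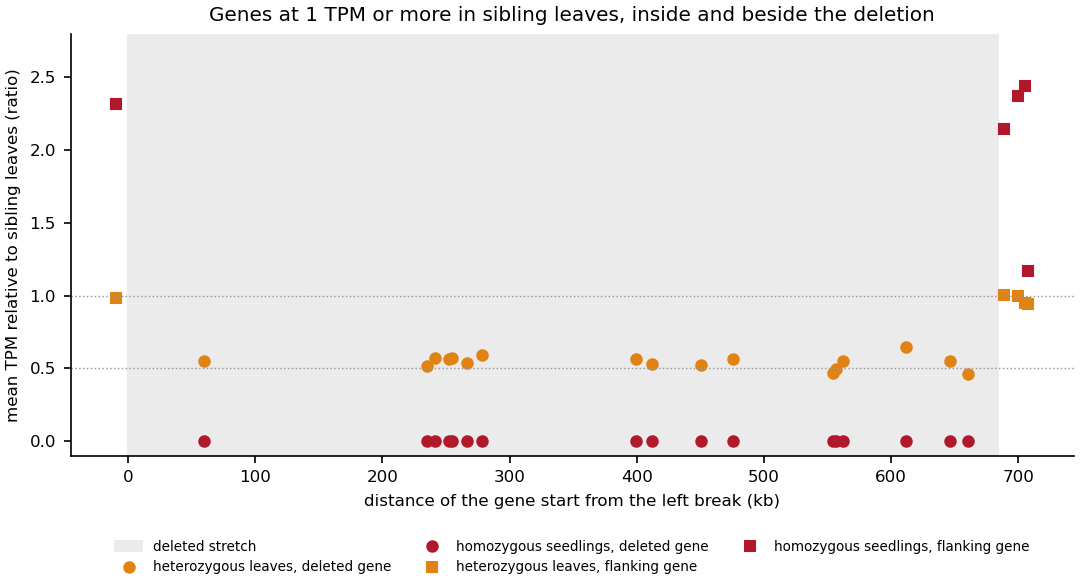
Mean TPM of a gene relative to sibling leaves (vertical axis, ratio) against the distance of its start from the left break (horizontal axis, kb), for genes with at least 1 TPM in siblings. Red points are homozygous seedlings, orange points are heterozygous leaves, circles are deleted genes and squares are flanking genes, and dotted lines mark ratios of 0.5 and 1. All 17 deleted genes lie at or near 0 in homozygous seedlings and between 0.458 and 0.649 in heterozygous leaves, while flanking genes lie near 1 in heterozygous leaves.

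Genes beside the breaks were still expressed. On the right side, AT3G43740, which codes for a leucine-rich repeat protein, was at 38.2, 40.2, 36.6 and 33.2 TPM in homozygous and 14.7 to 19.0 TPM in sibling samples, which is 0.36 ± 0.10 on the log2 scale (SE in all such pairs; adjusted p = 0.00810). *ZIFL2*, a zinc-induced facilitator-like transporter gene, and *GSTU27*, a glutathione S-transferase gene, had log2 fold changes of 0.50 ± 0.17 (adjusted p = 0.0183) and 0.53 ± 0.18 (adjusted p = 0.0194). The calmodulin gene *CAM7* was called lower at -0.53 ± 0.11 (adjusted p = 9.85e-04) on the TMM scale used for the test, but the direction depends on the scale: its TPM of 81.7 to 126 overlapped and mostly exceeded the 80.1 to 91.4 of siblings. On the left side 3 genes were tested and none was called. None of the flanking genes tested was called in heterozygous leaves. The call of *ZIFL2* was lost without homozygous replicate 3 (adjusted p = 0.0534) or sibling replicate 2 (adjusted p = 0.0593) and with Col-0 leaves as the control (0.31, adjusted p = 0.122), and that of *GSTU27* without homozygous replicate 2 (0.0713), sibling replicate 2 (0.0569) or sibling replicate 4 (0.0556).

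The retained syntenic paralogues, the duplicate copies of deleted genes that sit in other blocks, moved in both directions. Of 14 listed paralogues 10 passed the filter, and 4 were called higher and 2 lower. Over all tested genes 33% were called higher and 27.8% lower, and the counts for paralogues are near these shares. *BPM5*, the copy of *BPM6*, was at 8.93 to 11.7 TPM against 4.26 to 5.58 TPM in siblings (log2 fold change 0.33 ± 0.09, adjusted p = 0.00593). *AAO3*, the copy of *AAO2*, which makes abscisic acid from its aldehyde, was at 4.93 to 6.10 against 2.07 to 3.11 TPM (0.46 ± 0.15, adjusted p = 0.0171). Both were higher in all 4 homozygous samples than in any sibling sample, which also held for 62.1% of all tested genes, while 8% lay below every sibling sample in all 4. The call of *AAO3* was lost without sibling replicate 1 (adjusted p = 0.0505) and with Col-0 leaves as the control (adjusted p = 0.0532). *SUS1*, the copy of *SUS4*, was at 5.96 to 13.3 against 3.85 to 8.26 TPM and was not called (-0.05 ± 0.39, adjusted p = 0.914). *JAZ12*, the copy of *JAZ11*, was called lower at -0.57 ± 0.10 (adjusted p = 2.30e-04), but its direction depends on the scale: it was at 88.5 to 116 TPM in homozygous and 82.3 to 109 TPM in sibling samples. AT5G20790, a gene of no stated function, fell by 4.11 ± 0.77 on the log2 scale (adjusted p = 3.81e-04). Evening and morning Col-0 seedlings held means of 9.05 and 7.60 TPM of *BPM5*, 5.61 and 4.77 TPM of *AAO3* and 81.5 and 38.0 TPM of AT5G20790. The seedling-to-leaf contrasts of the mutant and of Col-0 were also tested against each other. Of the 10 paralogues 0 were higher and 1 was lower in the mutant contrast at both times, beside 12.9% and 11.2% of all genes.

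A wider set of 21 genes held relatives of deleted genes from the same gene families. It also held *CHR11*, *CHR17*, *RLT1* and *RLT2*, chromatin remodelling genes that share no family with a deleted gene. In this set 11 members were called higher and 0 lower among 20 tested, beside 33% and 27.8% of all tested genes. The median log2 fold change was 0.31 against 0.07 over all tested genes. The 11 include *CHR11*, *CHR17*, *RLT1* and *RLT2*, and also *AAO3* and *BPM5*, which the paralogue count above holds too. *VTL5*, a vacuolar iron transporter-like gene, was at 8.01, 12.3, 13.3 and 16.0 TPM in homozygous seedlings and had reads in 1 sibling sample, at 0.0306 TPM (log2 fold change 9.38 ± 0.62, adjusted p = 6.04e-08). It was at a mean of 36.5 TPM in evening Col-0 seedlings and 0.0150 TPM in Col-0 leaves. *AAO1*, another aldehyde oxidase gene, was at 5.21 to 13.7 against 0.414 to 0.962 TPM (3.27 ± 0.36, adjusted p = 3.91e-06), and its mean was 13.6 TPM in evening Col-0 seedlings. *RLT2*, a partner of ISWI chromatin remodellers, was at 10.3 to 11.9 against 3.83 to 4.95 TPM (0.64 ± 0.10, adjusted p = 5.61e-05), and Col-0 seedlings held means of only 5.85 and 5.54 TPM.

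Across the genome, 12666 genes (60.8%) were called, 6872 (33%) higher and 5794 (27.8%) lower in homozygous seedlings, of 20833 tested among 27538 listed. Between the sibling and the Col-0 leaves 2 genes (0.0096%) were called higher and 1 (0.0048%) lower in siblings. At least 4-fold changes were skewed, with 2663 genes higher (12.8%) and 561 lower (2.69%). In heterozygous against sibling leaves, where the organ is the same, edgeR called 0 genes higher (0%) and 11 lower (0.0528%), all 11 in the deletion, with 592 higher and 388 lower at an unadjusted p under 0.05. Estimated counts summed to 26640541 to 34771673 per homozygous sample and 32231163 to 40016727 per sibling sample. The 20 most abundant genes took 16.1 to 19.4% of TPM in homozygous and 22 to 25.3% in sibling samples, and 17948 to 18968 against 15835 to 16436 genes reached 1 TPM. TMM, the scaling used for the test, and TPM therefore differ: scaling to total counts moved the median log2 fold change up by 0.74 (1.67-fold) and turned the split into 14507 genes higher and 2077 lower. Log2 fold changes here are on the TMM scale, so a gene at -0.74 has equal TPM in both groups. The first principal component held 73.4% of the variance and parted the homozygous samples, at 121 to 218, from the 11 leaf samples of all genotypes, at -80.5 to -39.6. Homozygous samples also spread more among themselves, with a median SD of 0.279 log2 CPM over genes against 0.183 in siblings.

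Most tested genes of the root lists were called higher in homozygous seedlings, by amounts that differed between the samples. Not all were low in leaves: *KCS20*, of the suberin list, had means of 71.9 TPM in homozygous and 44.2 TPM in sibling samples and was not called, and *NRT1.1*, a nitrate transporter gene that was called lower, had 13.5 and 22.7 TPM. In the list of 23 root hair genes, 17 were called higher and 0 lower among 19 tested, beside 33% and 27.8% of all tested genes. Of these 19, 7 had no count in any sibling sample, as had 7 tested genes each of the Casparian strip and root patterning lists. Such genes passed the filter only through the homozygous samples and could only be called higher. Other tested members of these lists were almost unread in siblings and could hardly be called lower. Examples are *LRX1* and *EXPA18*, at sibling means of 0.00183 and 0.00702 TPM. These counts are therefore a description. The 4 homozygous samples differed widely, with summed levels of 4.34, 34.0, 141 and 184 TPM in replicates 1 to 4, against 1.51 to 2.69 TPM in siblings. Replicate 1 was the lowest of the 4 in all 19 tested genes and exceeded every sibling sample in 8 of them. *RHS19*, a peroxidase gene of root hairs, was at 0.0803, 5.59, 17.1 and 17.597 TPM in homozygous samples and had no read in siblings (log2 fold change 11.50 ± 2.11, adjusted p = 0.00147). *PRP3*, a cell wall protein gene, was at 0.0213, 1.99, 17.1 and 26.7 TPM, and its lowest sample lay within the sibling range. *RHS10*, a receptor-like kinase gene that limits root hair growth, was more even at 1.39, 1.84, 2.65 and 3.79 TPM against 0.0308 to 0.0698 TPM (4.99 ± 0.54, adjusted p = 3.32e-06). The count of 17 was 3 without homozygous replicate 2, 3 or 4 and in a fit of the 8 compared samples alone, and 17 without replicate 1. The cause was not tested.

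The other root lists varied less. Of 23 Casparian strip and suberin genes, 18 were called higher and 0 lower among 22 tested, beside 33% and 27.8% of all tested genes. The list summed to 121, 150, 183 and 289 TPM in homozygous samples against 56.1 to 71.7 TPM in siblings. *PER64*, the peroxidase that polymerises lignin in the Casparian strip, was at 1.68, 4.31, 4.63 and 11.3 TPM and had reads in 1 sibling sample, at 0.0171 TPM (8.87 ± 0.86, adjusted p = 1.13e-06). *SHR*, which codes for the mobile regulator of endodermis fate, was at 8.29 to 11.1 against 2.39 to 3.53 TPM (1.04 ± 0.13, adjusted p = 1.38e-05). Of 22 root patterning and identity genes, 13 were called higher and 0 lower among 14 tested, and 8 without homozygous replicate 4. *PYK10*, a beta-glucosidase of root ER bodies, made up most of that sum at 119, 119, 233 and 387 TPM against 0.140 to 7.06 TPM. *PLT1* and *BBM*, regulators of the root stem cell niche, had no read in siblings and were at 0.106 to 1.41 and 0.136 to 1.45 TPM in homozygous samples. In the root nutrient uptake list, 18 of 23 tested genes were called higher and 2 lower. Of these 23, 3 had no count in any sibling sample and could only be called higher. *PHT1;1*, a phosphate transporter gene, was at 3.06, 12.1, 40.4 and 48.6 TPM against at most 0.0122 TPM (10.69 ± 1.16, adjusted p = 4.53e-06), and *FIT*, the regulator of iron uptake, at 2.22, 5.66, 8.92 and 10.6 TPM against 0.384 to 0.732 TPM. Replicate 1 was the lowest homozygous sample in 17 of 22 Casparian strip and suberin, 17 of 23 nutrient uptake and 12 of 14 patterning genes.

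Medians over lists with genes unread in siblings depend on how such genes are set. The fitted median log2 fold change was 7.79 for root hair, 6.84 for Casparian strip and suberin and 6.71 for root patterning. With the 7 genes unread in siblings of each list set to lower bounds it was 4.99, 5.09 and 3.2. Those bounds are ratios of TPM, a scale that lies 0.74 above the TMM scale of the other members by the median log2 fold change. The same lists had fitted medians of 7.77, 7.85 and 7.47 in Col-0 seedlings against Col-0 leaves in the evening. When the mutant and the Col-0 contrasts were tested against each other, no member of the 3 lists was higher at both times of day and 1, a Casparian strip and suberin gene, was lower. Over all 21355 genes in that test, 2756 (12.9%) had a higher and 2393 (11.2%) a lower seedling-to-leaf contrast in the mutant than in Col-0 at both times. The Col-0 seedlings were pools from plates of another experiment, and the sources used here do not state the time of day of the pAP146 samples. The part of experiment, pooling, plates and time of day therefore cannot be told apart from that of genotype in this test.

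**Figure D2:**
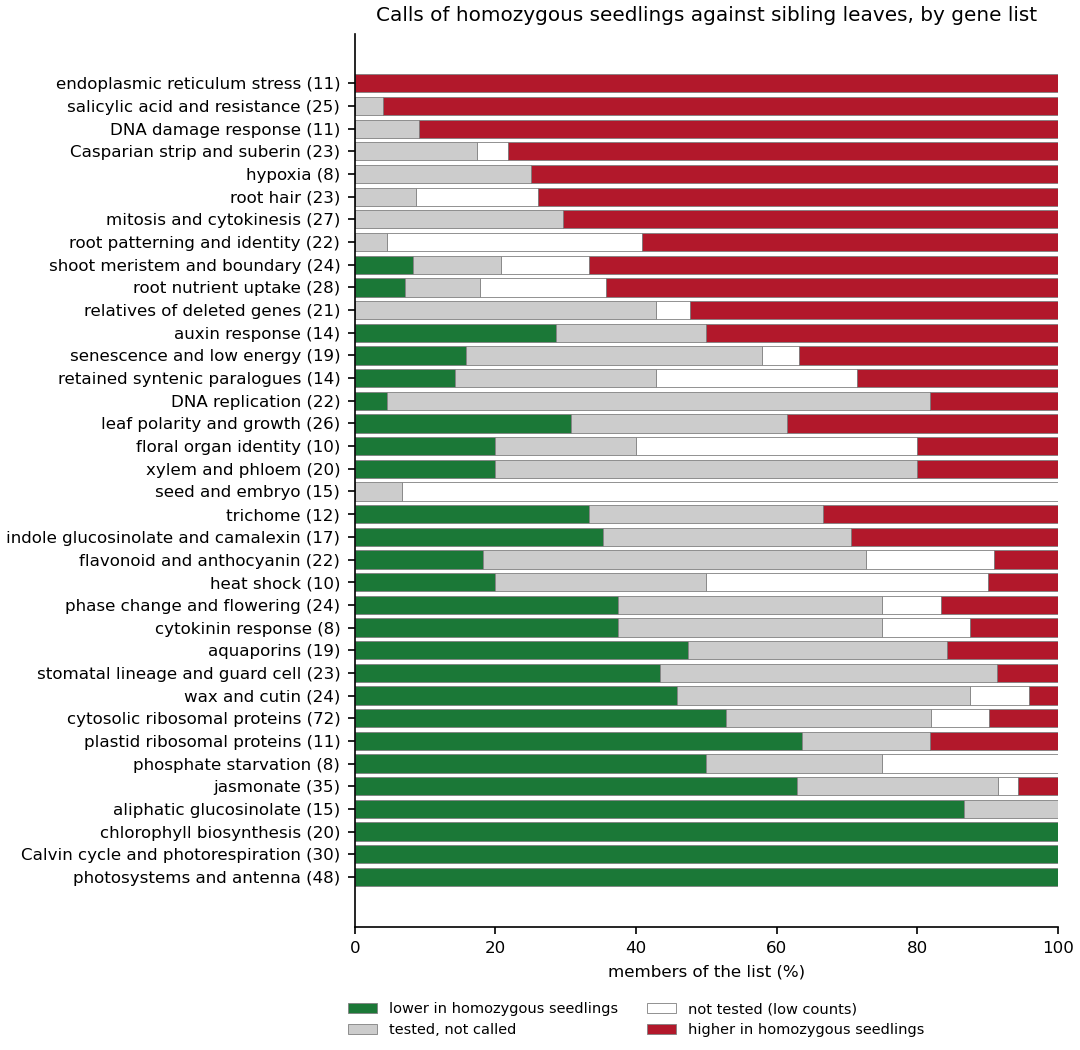
Share of each gene list (horizontal axis, percent of members) called higher in homozygous seedlings (red), called lower (green), tested and not called (grey) or removed by the filter on counts (white), with the number of members in brackets. All 11 endoplasmic reticulum stress genes and 24 of 25 salicylic acid genes are red, and all 48 photosystem, 30 Calvin cycle and 20 chlorophyll genes are green. Over all tested genes 33% were called higher and 27.8% lower.

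Photosynthesis genes were lower. All 48 photosystem and antenna genes, all 30 Calvin cycle and photorespiration genes and all 20 chlorophyll biosynthesis genes were called lower. Their median log2 fold changes were -1.94, -1.69 and -1.68, and 27.8% of all tested genes were called lower. With total counts as library sizes 47, 29 and 19 members of the 3 lists were still called lower. The photosystem list summed to 169230, 98376, 112429 and 127567 TPM in homozygous replicates 1 to 4 and to 233205 to 281158 TPM in siblings. Replicate 1, which had the least root hair RNA, had the highest level of 43 of the 48 genes. *RBCS1A*, a small subunit of Rubisco, was at 20597, 15296, 17288 and 19977 TPM against 39545 to 41446 TPM (-1.90 ± 0.13, adjusted p = 8.69e-08). *RBCS2B*, another small subunit, was at 1023 to 1760 against 7245 to 8445 TPM (-3.28 ± 0.20, adjusted p = 3.24e-08). *LHCB1.3*, an antenna protein gene, fell less and its TPM ranges overlapped, at 13888 to 26134 against 22433 to 28809 (-1.24 ± 0.20, adjusted p = 1.36e-04). *LHCB4.3*, a minor antenna protein gene, was at 4.23 to 8.87 against 49.2 to 55.4 TPM (-3.76 ± 0.21, adjusted p = 1.51e-08).

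The green lists parted in how they compare with Col-0 seedlings. Photosystem genes had a median contrast of -2.71 in evening and -1.43 in morning Col-0 seedlings, and 1 of the 48 was higher and 6 were lower in the mutant contrast at both times. Calvin cycle and photorespiration genes had medians of only -0.81 and -0.36 in Col-0, and 23 of 30 were lower in the mutant contrast at both times, beside 11.2% of all genes. Their sum was 31803 to 43901 TPM in homozygous seedlings, 60983 to 66847 TPM in evening and 73704 to 75206 TPM in morning Col-0 seedlings. *RBCS2B* had means of 7679 and 7682 TPM in Col-0 seedlings, near the leaf level, and its contrast differed by -2.44 ± 0.23 (adjusted p = 2.75e-07) in the evening and -2.64 ± 0.24 (adjusted p = 7.84e-08) in the morning. *CP12-2*, a redox regulator of the cycle, was at 276 to 367 TPM in homozygous seedlings against 693 to 878 TPM in siblings, and had means of 1245 and 627 TPM in Col-0 seedlings. *SBPASE*, the sedoheptulose-bisphosphatase gene, was at 144 to 241 against 529 to 578 TPM and had means of 449 and 617 TPM in Col-0 seedlings. *LHCB1.1*, an antenna protein gene, had means of 82.9 TPM in evening and 6999 TPM in morning Col-0 seedlings, beside 4018 to 9584 TPM in homozygous seedlings.

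Genes of the shoot apex were higher. Of 24 shoot meristem and boundary genes, 16 were called higher and 2 lower among 21 tested, beside 33% and 27.8% of all tested genes. Of these 21, 2 had no count in any sibling sample and could only be called higher, and *STM* and *KNAT1* were almost unread there. The counts are therefore a description. The list summed to 85.6 to 116 TPM against 31.5 to 46 TPM with no overlap. *STM*, the KNOX gene that keeps the meristem, was at 2.92, 4.88, 3.98 and 4.38 TPM against 0.0309 to 0.123 TPM (5.15 ± 0.48, adjusted p = 8.65e-07). *KNAT1*, a KNOX gene of the stem, was at 7.33 to 11.8 against at most 0.0261 TPM (8.32 ± 0.64, adjusted p = 1.56e-07), and *KNAT6* at 4.53 to 7.35 against 0.0913 to 0.187 TPM. The stem cell genes *WUS* and *CLV3* did not pass the filter. Col-0 seedlings had the same pattern, with *STM* at means of 3.41 and 3.52 TPM, and 0 of the 21 genes differed in contrast in either direction at both times. Among 26 leaf polarity and growth genes, 10 were called higher and 8 lower, or 19 and 3 with total counts. *GRF5* and *GRF3*, growth regulators of young leaf primordia, were at 5.30 to 6.97 against at most 0.0739 TPM and at 27.4 to 39.3 against 4.21 to 7.53 TPM, while the TCP genes of leaf maturation *TCP4* and *TCP2* fell by 1.72 and 1.28 on the log2 scale. *TCP3* (-0.61) and *TCP24* (-0.72) were called lower on the TMM scale too, but their mean TPM was 29 against 26.6 and 23.9 against 23.7, so their direction depends on the scale.

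Mitosis genes were mostly called higher and DNA replication genes mostly not called, beside 33% higher and 27.8% lower over all tested genes. Of 27 mitosis and cytokinesis genes, 19 were called higher (1 in a test against a 2-fold change) and 0 lower, with a summed level of 227 to 366 TPM against 48.1 to 125 TPM. *CDKB1;1*, a mitotic kinase gene, was at 6.74, 5.6, 6.67 and 10.2 TPM against 0.905 to 1.89 TPM (1.73 ± 0.37, adjusted p = 0.00113), and *AUR1*, an Aurora kinase gene, at 11.9 to 21.7 against 2.32 to 4.98 TPM. Of 22 DNA replication genes 4 were called higher and 1 lower, 16 and 0 when Col-0 leaves were the control and 21 and 0 with total counts as library sizes, and 0 were higher in the test against 2-fold. *POL2A*, the catalytic subunit of DNA polymerase epsilon, was at 2.63 to 3.54 against 0.818 to 1.21 TPM (0.88 ± 0.14, adjusted p = 1.22e-04). In Col-0 seedlings against Col-0 leaves, 18 of 27 mitosis and 15 of 22 replication genes were higher at both times, beside 24.2% of all genes. In the mutant contrast 0 mitosis genes and 1 replication gene were higher at both times, and 1 of each list was lower. The shares over all genes were 12.9% higher and 11.2% lower. The E2F motif (any of TTTGGCGC, TTTCCCGC, TTTGCCGC and TTTCGCGC on either strand) was in the 300 bases before the start of 10 of 22 DNA replication genes (45.5%) and 1.58% of 27343 genes. AACGG, the core bound by mitotic MYB3R proteins, was there in 19 of 27 mitosis genes (70.4%) and 23.4% of all. A match is a description of the letters in these windows and not a bound site.

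DNA damage response genes stood above both leaves and Col-0 seedlings. Of 11 genes 10 were called higher and 0 lower, beside 33% and 27.8% of all tested genes. The list summed to 67.2, 64.6, 63.4 and 66.4 TPM in homozygous samples, 11.6 to 14.8 TPM in siblings and 23.2 to 33.0 TPM in the 7 Col-0 seedling samples. The 4 homozygous samples were thus closer to each other here than in the root lists. *SOG1*, the NAC factor at the head of the plant DNA damage response, was at 10.6 to 14.4 against 2.23 to 3.1 TPM (1.49 ± 0.14, adjusted p = 9.98e-07), with Col-0 seedlings at means of 6.47 and 4.40 TPM. *PARP2*, a poly(ADP-ribose) polymerase gene, was at 8.20 to 9.79 against 1.39 to 1.85 TPM (1.80 ± 0.18, adjusted p = 1.55e-06) and its contrast was higher than in Col-0 by 1.6 ± 0.23 (adjusted p = 2.38e-05) and 1.79 ± 0.24 (adjusted p = 9.23e-06). *GMI1* and *XRI1*, both induced by ionising radiation, also differed at both times, by 1.17 and 1.59 and by 0.77 and 0.99. In all, 4 of the 11 genes were higher in the mutant contrast at both times and 0 lower, beside 12.9% and 11.2% of all genes. Meristem and mitosis genes were high in the same samples, and their part in this result was not tested.

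**Figure D3:**
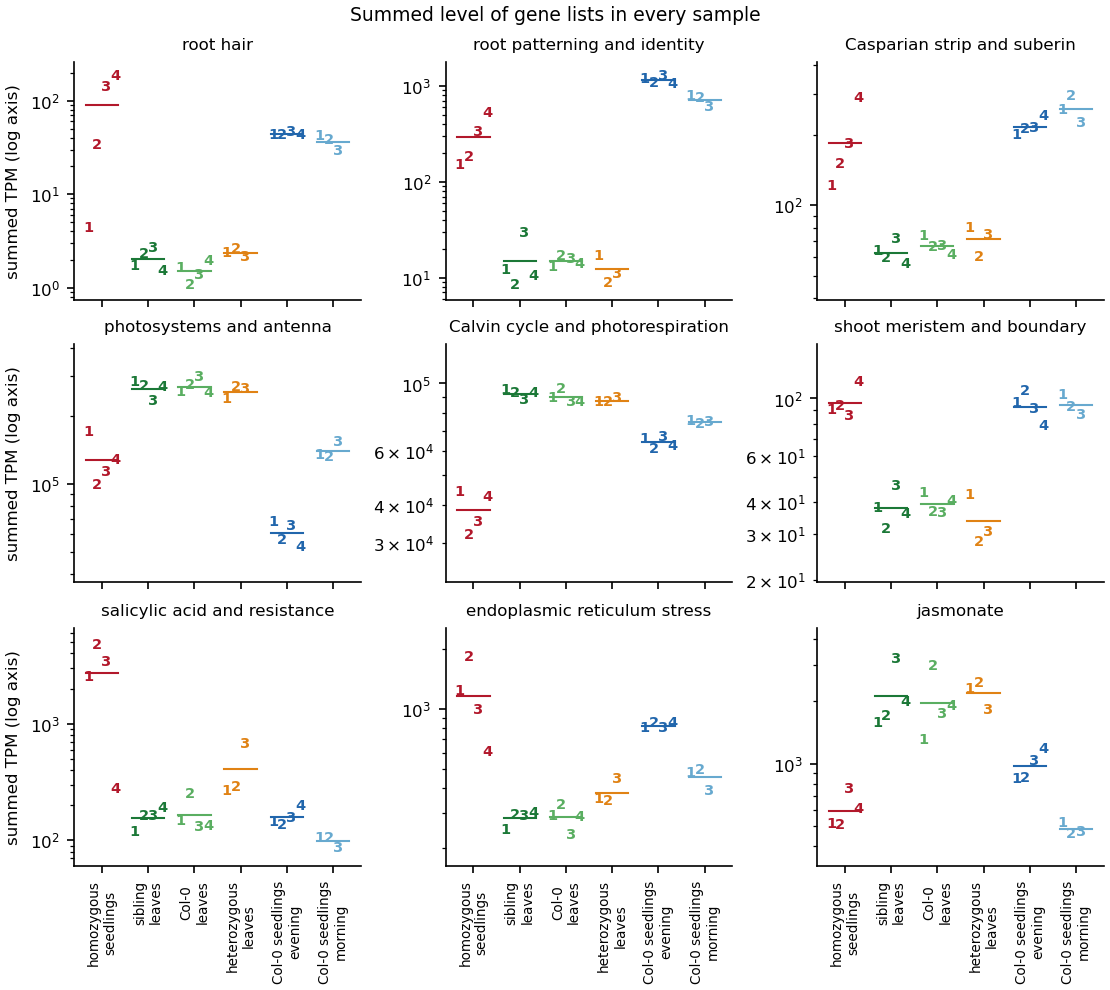
Summed TPM of 9 gene lists (vertical axes, log scale) in every sample, by group (horizontal axes), with each sample drawn as its replicate number and the group mean as a line. Homozygous replicate 1 has 4.34 TPM and replicate 4 184 TPM of root hair genes, and replicate 4 has 278 TPM of salicylic acid genes against 2505 to 4698 TPM in replicates 1 to 3.

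Salicylic acid genes set 3 of the 4 homozygous samples apart from every other group. Of 25 genes, 24 were called higher and 0 lower (median log2 fold change 3.05), beside 33% and 27.8% of all tested genes. The list summed to 2505, 4698, 3398 and 278 TPM in homozygous replicates 1 to 4, against 117 to 188 TPM in siblings, 130 to 249 TPM in Col-0 leaves and 86.3 to 199 TPM in Col-0 seedlings. Replicate 4 was the lowest homozygous sample for all 25 genes, though it exceeded every sibling sample for 18 of them. *PR1*, the classic marker of the salicylic acid response, was at 405, 1749, 1184 and 1.16 TPM in homozygous samples and at 0, 0.282, 0 and 49.7 TPM in siblings, so that the groups overlap (5.24 ± 1.88, adjusted p = 0.0266). This call was lost without homozygous replicate 2 (adjusted p = 0.0533) and without sibling replicate 1, 2 or 3 (0.0550, 0.0568 and 0.0530), and also with Col-0 leaves as the control (0.0606) and in the 8 compared samples alone (0.0720). *PR2*, a beta-1,3-glucanase gene, was at 275, 672, 448 and 28 TPM against 2.36 to 10.6 TPM (5.12 ± 0.90, adjusted p = 2.76e-04), with no overlap. *WRKY38*, a WRKY factor of basal defence, was at 52.3, 77.3, 57.8 and 0.176 TPM against at most 0.121 TPM (9.46 ± 1.72, adjusted p = 3.53e-04).

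The rise ran through synthesis, signalling and response genes. *ICS1*, the isochorismate synthase of salicylic acid synthesis, was at 38.2, 47.3, 39.5 and 13.1 TPM against 3.01 to 3.64 TPM (2.59 ± 0.31, adjusted p = 8.34e-06). *PBS3*, which makes the last conjugate before salicylic acid, was at 25.6, 27.3, 36.1 and 7.63 TPM against 1.0 to 1.34 TPM (3.69 ± 0.40, adjusted p = 4.16e-06). *EDS1* and *PAD4*, partners that relay signals of intracellular immune receptors, were at 53.3, 77.0, 58.0 and 16.6 and at 79.0, 117, 88.3 and 19.1 TPM, against 3.73 to 4.49 and 2.37 to 2.81 TPM. Every homozygous sample was above every sibling sample for these 4 genes, which also held for 62.1% of all tested genes. *NIMIN1*, an inhibitor of the salicylic acid receptor NPR1, had a log2 fold change of 7.51 and *FMO1*, needed for systemic resistance, of 7.19, while *NPR1* itself changed by 1.02. *SARD4*, of pipecolic acid synthesis, was not called, with a log2 fold change of 1.02 as well, but was called without homozygous replicate 4 (1.37, adjusted p = 5.21e-04), when 25 genes of the list were called higher.

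Col-0 seedlings did not share this pattern. The median contrast of the list was -0.42 in evening and -0.81 in morning Col-0 seedlings, and 23 of the 25 genes were higher in the mutant contrast at both times, beside 12.9% of all genes. The difference for *PR2* was 10.28 ± 1.2 (adjusted p = 4.19e-06) in the evening and 10.22 ± 1.31 (adjusted p = 8.39e-06) in the morning, and for *PAD4* 4.58 ± 0.55 (adjusted p = 5.94e-06) and 4.93 ± 0.59 (adjusted p = 4.15e-06). Genes outside the list with large differences of this kind were also named by the rule. *ARD3*, an acireductone dioxygenase gene, was at 106, 174, 35.8 and 1.16 TPM against at most 0.0568 TPM in siblings, AT3G28510, a P-loop NTPase gene, at 62.6, 60.9, 23.9 and 0.841 TPM against at most 0.0189 TPM, and AT5G26690, a heavy metal domain gene, at 119, 167, 62.7 and 9.08 TPM against 0.464 to 0.959 TPM. Replicate 4 was the lowest for all 3 genes, but replicate 3 lay below replicate 1, unlike in the sum of the list. Heterozygous leaves held 263, 289 and 664 TPM of the salicylic acid list, above the 249 TPM that was the highest of the 8 control leaf samples, and heterozygous replicate 3 exceeded all 8 for 24 of the 25 genes. In edgeR's test of heterozygous against sibling leaves 0 genes of the list were called (smallest adjusted p = 1), and 7 passed at an unadjusted p under 0.05.

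Several very abundant transcripts were low in the same homozygous sample. *ECS1* was at 10111, 11309, 9842 and 1161 TPM against 1178 to 2502 TPM in siblings (1.39 ± 0.49, adjusted p = 0.0244). AT2G25510 was at 9312, 8880, 8994 and 622 TPM against 511 to 1920 TPM (1.78 ± 0.60, adjusted p = 0.0203), and AT3G22235, a cysteine-rich transmembrane module gene, at 9022, 7107, 6719 and 43.1 TPM against 298 to 1053 TPM (2.2 ± 0.97, adjusted p = 0.0645). In each case replicate 4 lay below replicates 1 to 3 and within or below the sibling range. The call of *ECS1* was lost without any 1 of homozygous replicates 1, 2 and 3 and sibling replicates 1 and 2 (adjusted p = 0.0530 to 0.0655), with Col-0 leaves as the control (0.0875) and in the 8 compared samples alone (0.0674). That of AT2G25510 was lost without homozygous replicate 1 (0.0536) or sibling replicate 2 (0.0538), with Col-0 leaves (0.103) and in the 8 samples alone (0.0613), and AT3G22235 was called without homozygous replicate 4 (adjusted p = 0.00172). *MT1A*, a metallothionein gene, was highest in replicate 4, at 8975, 13378, 18084 and 29053 TPM against 4994 to 13369 TPM and was not called (0.24 ± 0.38, adjusted p = 0.614).

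Genes for protein folding in the endoplasmic reticulum rose together. All 11 were called higher (median log2 fold change 1.33), 4 of them in a test against a 2-fold change, beside 33% of all tested genes called higher. Every homozygous sample was above every sibling sample for all 11, which also held for 62.1% of all tested genes. The sum was 1224, 1806, 988 and 604 TPM in homozygous samples and 246 to 299 TPM in siblings. Replicate 2 was the highest and replicate 4 the lowest for each of the 11 genes. *BIP3*, a stress-induced chaperone gene, was at 26.6, 60.4, 18.6 and 2.09 TPM against 0.0981 to 0.333 TPM (6.48 ± 0.97, adjusted p = 7.37e-05), and its contrast was higher than that of Col-0 by 8.0 ± 1.21 (adjusted p = 6.15e-05) and 7.65 ± 1.27 (adjusted p = 1.24e-04). *BIP2*, its constitutive relative, was at 127, 194, 96.4 and 65.5 TPM against 22.3 to 28.3 TPM (1.49 ± 0.27, adjusted p = 3.62e-04), but evening Col-0 seedlings held a mean of 102 TPM. *ERDJ3B*, a co-chaperone gene needed for immune receptor maturation, was at 147, 235, 120 and 71.3 TPM against 23.3 to 26.8 TPM (1.75 ± 0.26, adjusted p = 6.24e-05). Col-0 seedlings summed to 794 to 849 TPM in the evening and 386 to 494 TPM in the morning, and 4 of the 11 genes were higher in the mutant contrast at both times and 0 lower, beside 12.9% and 11.2% of all genes.

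**Figure D4:**
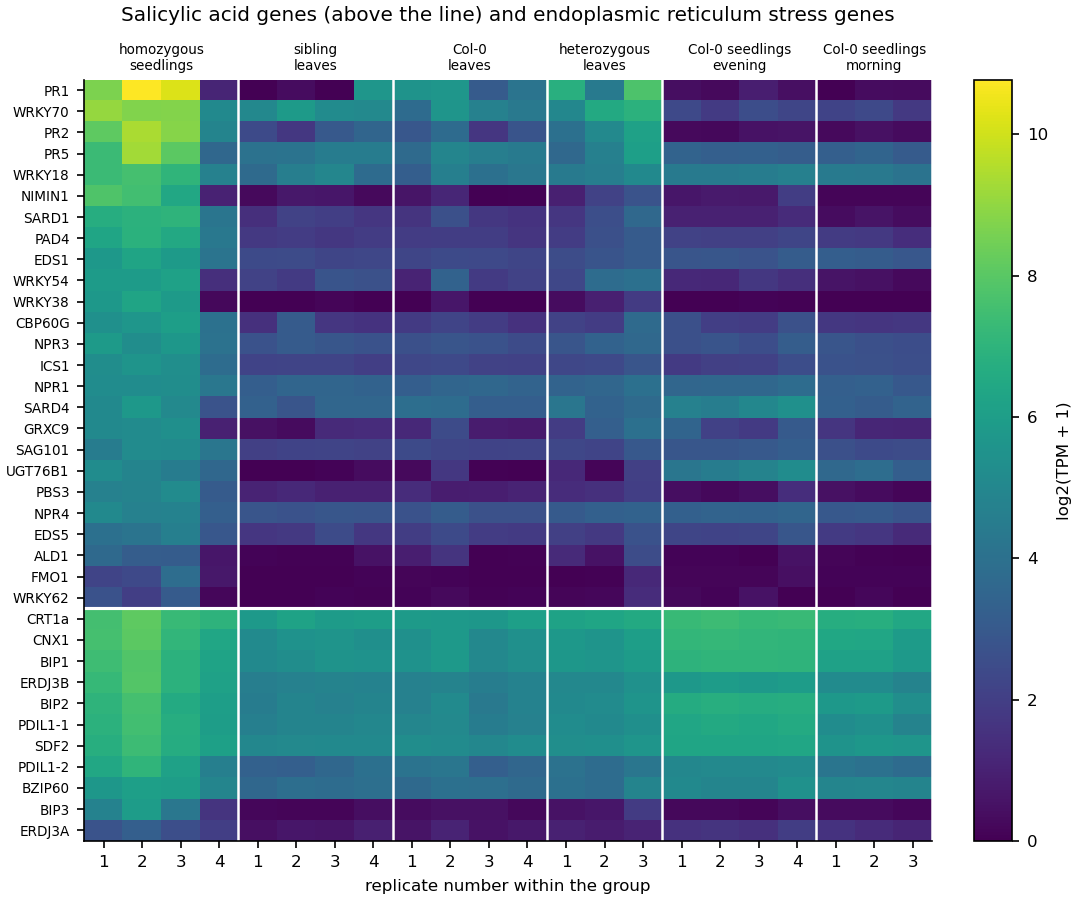
Level of each salicylic acid gene (above the white line) and each endoplasmic reticulum stress gene (below it) as log2(TPM + 1) in colour, with 1 column per sample grouped by genotype and organ. Homozygous replicates 1 to 3 are bright in the upper block. Replicate 4 is the lowest of the 4 for all 25 genes there, though above every sibling sample for 18 of them. *BIP3* is at 26.6, 60.4, 18.6 and 2.09 TPM in homozygous samples and at most 0.333 TPM in siblings.

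The promoters of these 2 lists were read for the elements they are known for. The endoplasmic reticulum stress element (CCAAT, then 10 bases of any kind, then CACG, on either strand) was within 300 bases before the start of 4 of the 11 genes (36.4%), against 0.750% of 27343 genes. The W-box (TTGACC or TTGACT on either strand), which WRKY factors bind, was in 6 of 25 salicylic acid promoters (24%) against 32.2% of all genes. The 4 stretches with the first element are shown with the element in capitals, 5′ to 3′ on the strand of the gene (minus for *BIP3* and *CRT1a*), from RefSeq's TAIR10.1 chromosome 1, at 2931922 to 2931951 for *BIP3*, 7645418 to 7645447 for *PDIL1-1*, 29126579 to 29126608 for *PDIL1-2* and 21092753 to 21092782 for *CRT1a*.
BIP3: gcttaCGTGTCAAGAAGTGATTGGagagga
PDIL1-1: gatatCGTGACGCTTGTACATTGGtgcgga
PDIL1-2: tttatCCAATGAAAACTCTCCACGtgtatg
CRT1a: tctggCGTGTATTTAACTAATTGGttaacg

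*PDIL1-1* and *PDIL1-2* code for protein disulfide isomerases and *CRT1a* for calreticulin. They were called higher at log2 fold changes of 1.33, 2.1 and 0.82. The other members of the list were called higher too.

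Jasmonate genes were mostly lower. Of 35 genes 22 were called lower and 2 higher among 34 tested, beside 27.8% and 33% of all tested genes. The list summed to 509, 504, 755 and 602 TPM in homozygous samples against 1569 to 3210 TPM in siblings, with no overlap. *LOX2* and *AOS*, enzymes of jasmonate synthesis in the chloroplast, were at 33.5 to 66.2 against 305 to 737 TPM (-3.91 ± 0.32, adjusted p = 3.32e-07) and at 12.1 to 29.2 against 183 to 348 TPM (-3.97 ± 0.35, adjusted p = 6.41e-07). *PDF1.2*, a defensin gene that jasmonate and ethylene induce, was at 0, 0, 2.18 and 0.679 TPM against 45.4 to 90.7 TPM (-7.14 ± 1.07, adjusted p = 7.55e-05), the largest fall outside the deletion by the rule for named genes. *JAZ9* and *JAZ6*, repressors of the family of the deleted *JAZ11*, were at 24.5 to 43.1 against 135 to 234 TPM and at 14.3 to 26.8 against 43.0 to 73.7 TPM. *ERF1*, an ethylene and jasmonate response factor, and *AOC3* were the 2 genes called higher, at 4.66 and 1.37, the latter not without homozygous replicate 3 (adjusted p = 0.0858) or sibling replicate 1 or 4 (0.0596 and 0.0592). Col-0 seedlings were also low, with 839 to 1170 TPM in the evening and 459 to 519 TPM in the morning, and 4 of 34 genes were lower and 1 higher in the mutant contrast at both times, where 11.2% of all genes were lower and 12.9% higher. *AOC1*, an allene oxide cyclase gene, was 1 of the 4, at 4.80 to 15.3 TPM in homozygous seedlings and means of 71.3 and 37.7 TPM in Col-0 seedlings.

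Aliphatic glucosinolate genes, which make sulfur compounds against insects, were mostly lower. Of 15 genes 13 were called lower and 0 higher, beside 27.8% and 33% of all tested genes. The list summed to 280, 267, 635 and 695 TPM in homozygous samples against 718 to 1156 TPM in siblings. In 7 of 15 genes all homozygous samples lay below every sibling sample, beside 8% of all tested genes. Col-0 seedlings shared the fall, with medians of -1.77 and -1.60 beside -1.70 in the mutant and 13 genes lower at both times. In the mutant contrast 1 gene was lower and 0 higher at both times. *CYP79F1*, the entry enzyme, was at 14.1, 7.90, 25.4 and 30.5 TPM against 66.0 to 102 TPM (-2.78 ± 0.37, adjusted p = 2.63e-05). Indole glucosinolate and camalexin genes were split, with 5 higher and 6 lower of 17, or 8 and 3 with total counts as library sizes. *CYP79B3* was at 15.8 to 29.7 against 36.1 to 72.6 TPM (-2.03 ± 0.26, adjusted p = 1.41e-05). Flavonoid and anthocyanin genes were low in both groups: 2 of 18 tested were higher and 4 lower (7 without homozygous replicate 4), and *TT4*, chalcone synthase, was at 6.93 to 15 against 16.4 to 32.1 TPM. Col-0 seedlings had *TT4* at means of 185 and 175 TPM, and 8 of 19 flavonoid genes were lower in the mutant contrast at both times, beside 11.2% of all genes.

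Phosphate starvation genes were another place where the mutant and Col-0 seedlings parted. None of 6 tested genes was called higher and 4 were lower (2 with total counts as library sizes), beside 33% and 27.8% of all tested genes. The list of 8 summed to 46.3 to 72.1 TPM in homozygous seedlings, 54.7 to 68.2 TPM in siblings and 169 to 408 TPM in Col-0 seedlings. In the contrast against Col-0, 7 of 8 genes were lower at both times, beside 11.2% of all genes. *IPS1*, a noncoding RNA that sequesters a microRNA under phosphate limitation, was at 0 to 0.452 TPM in homozygous and 0 to 3.16 TPM in sibling samples, and at means of 81.0 and 93.1 TPM in Col-0 seedlings. AT5G03545, which responds to phosphate starvation, was at 1.2 to 10.2 TPM in homozygous seedlings against means of 395 and 385 TPM in Col-0 seedlings. The Col-0 seedlings grew on plates, and the part of the medium in these values was not tested. Heat shock genes had 1 member higher and 2 lower among 6 tested, a split that total counts turned to 4 and 1, and 6 of 8 were lower in the mutant contrast at both times (11.2% of all genes).

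Smaller groups were mixed, and over all tested genes 33% were called higher and 27.8% lower. Hypoxia genes were higher for 6 of 8, such as *HB1*, a non-symbiotic haemoglobin gene, at 9.67, 20.5, 46.9 and 4.95 TPM against 0.696 to 1.61 TPM (3.48 ± 0.56, adjusted p = 1.22e-04), and Col-0 seedlings held means of 20.05 and 25.5 TPM. Among 14 auxin response genes 7 were higher and 4 lower, and *GH3.5* and *GH3.6*, which conjugate auxin to amino acids, were at 12 to 21.0 against 0.359 to 0.540 TPM and at 22.1 to 41.3 against 0.382 to 1.66 TPM. Senescence and low energy genes were higher for 7 of 18, near the share of all genes, and lower for 3. *JUB1*, a NAC factor of longevity, was at 16.5, 15.3, 16.7 and 15.6 TPM against 0.0258 to 0.407 TPM (6.08 ± 0.76, adjusted p = 1.45e-05) and its contrast was above that of Col-0 by 3.86 ± 0.99 (adjusted p = 0.00505) and 4.50 ± 1.03 (adjusted p = 0.00209). It was among the most even of the named genes across homozygous samples.

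Developmental lists outside the root and apex had calls in both directions or few calls, beside 33% higher and 27.8% lower over all tested genes. Of 22 tested phase change and flowering genes 4 were higher and 9 lower, a split that total counts turned to 11 and 5. *SNZ*, a repressor of flowering, was at 9.35 to 21.0 against 46.7 to 53.6 TPM (-2.58 ± 0.24, adjusted p = 8.21e-07), and *SPL5* at 0.795 to 1.52 against 2.50 to 4.91 TPM (-2.42 ± 0.32, adjusted p = 1.82e-05). In the floral organ identity list 2 of 6 tested genes were higher, *SEP1* and *SHP1*, and 2 lower. *SEP1* was at 1.92 to 4.49 against 0.267 to 0.466 TPM (2.36 ± 0.37, adjusted p = 8.20e-05), above the Col-0 seedling means of 0.189 and 0.326 TPM. Of 15 seed and embryo genes only *FUS3* was tested and it was not called. It was called lower without sibling replicate 2 or 3 (adjusted p = 0.0389 and 0.0231) and with Col-0 leaves as the control (0.00995). Trichome genes had 4 higher and 4 lower of 12, with *GL1*, which starts trichomes, at 0.238 to 1.55 against at most 0.0982 TPM, and xylem and phloem genes 4 and 4 of 20 (7 higher without homozygous replicate 2, and 14 and 3 on total counts). Stomatal and guard cell genes were lower for 10 of 23 and higher for 2, turned by total counts to 4 and 5, and *ALMT12*, a guard cell anion channel gene, was at 0.473 to 0.907 against 1.25 to 2.4 TPM (-2.24 ± 0.27, adjusted p = 7.88e-06).

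Some small shifts had a direction that the scale decided. On the main scale 33% of all tested genes were called higher and 27.8% lower. Cytosolic ribosomal protein genes were called lower for 38 and higher for 7 of 66 tested, but with total counts as library sizes 1 was lower and 33 were higher, and their summed TPM was 19822 to 24645 in homozygous against 15746 to 18655 in sibling samples. The calls of lower fell to 24 without homozygous replicate 3, 25 without sibling replicate 2 and 18 with Col-0 leaves as the control. Plastid ribosomal protein genes kept more lower than higher calls, 7 and 2 of 11 on the main scale and 5 and 3 on total counts. Aquaporins were lower for 9 and higher for 3 of 19 (4 and 5 on total counts), wax and cutin genes 11 and 1 of 22 (3 and 5), and cytokinin response genes 3 and 1 of 7 (0 and 2).

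**Figure D5:**
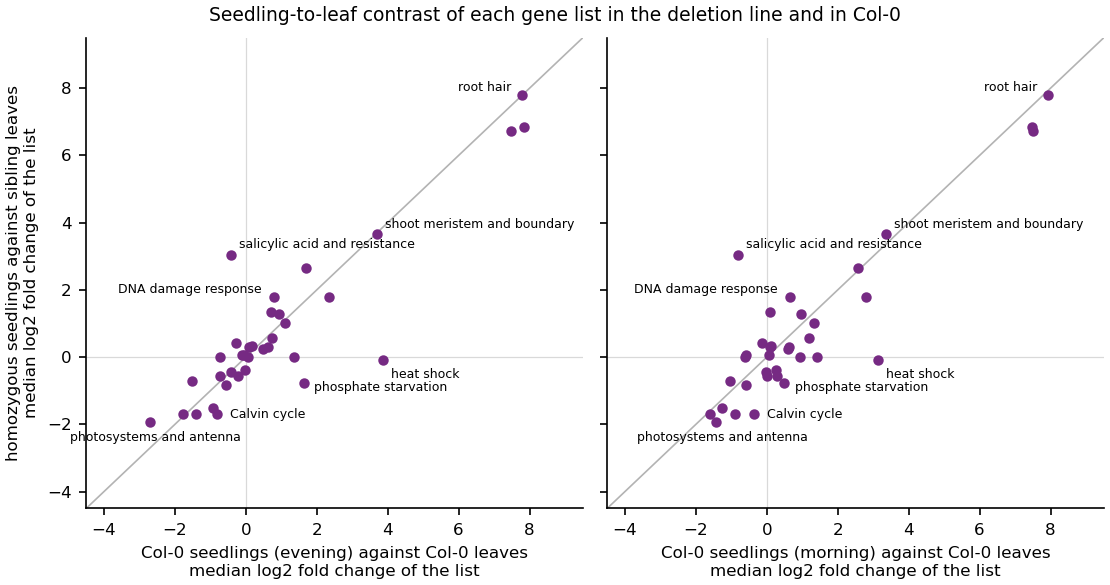
Median log2 fold change of each list in homozygous seedlings against sibling leaves (vertical axis) and in Col-0 seedlings against Col-0 leaves (horizontal axis), for evening (left) and morning (right) Col-0 seedlings, with the line of equality. Root hair lies at 7.79 on the vertical axis near the line, salicylic acid lies far above it at 3.05 against -0.42 and -0.81, and phosphate starvation and heat shock lie below it.

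By the rule for named genes, the 12 with the largest rise had at least 20 TPM in homozygous seedlings and no overlap with siblings. The group non-overlap that this rule uses held for 62.1% of tested genes in the direction of a rise and 8% in that of a fall. AT3G01190 and AT2G38390, class III peroxidase genes, were at 0.827, 47.2, 47.0 and 83.3 TPM and at 11, 44.9, 57.5 and 32.7 TPM. They had no read in siblings and were at least 695-fold and 629-fold higher in TPM. *FLS5*, of the flavonol synthase family, was at 8.39, 25.6, 39.9 and 97.0 TPM with no read in siblings, and *MLP34*, a major latex protein gene, at 32.9, 53.3, 201 and 184 TPM with reads in 1 sibling sample at 0.0193 TPM. All 4 genes were also read in Col-0 seedlings, the lowest mean being 15.2 TPM for AT2G38390 in the morning. *BGLU21* and *BGLU22*, beta-glucosidases related to *PYK10*, were at 0.830, 13.4, 61.4 and 68.7 TPM and at 1.31, 10.1, 58.4 and 47.3 TPM.

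Some of the 12 were low or unread in Col-0 seedlings or in homozygous replicate 4. AT5G38650, a proteasome maturation factor gene, was at 29.2, 78.1, 61.6 and 57.2 TPM in homozygous seedlings, had no read in sibling, heterozygous or Col-0 leaves, and had means of 2.04 and 0 TPM in evening and morning Col-0 seedlings. The difference from Col-0 was not called at either time. AT2G44240, a DUF239 protein gene, was at 15.2, 25.5, 48.2 and 0.357 TPM with no read in siblings or in Col-0 seedlings, and was low in replicate 4. AT4G22517, a lipid transfer-like protein gene, was at 135, 94.8, 73.1 and 0.223 TPM with means of 248 and 241 TPM in Col-0 seedlings. Outside the 12, *AIR1*, an auxin-induced gene of root cultures, was at 0, 55.3, 108 and 206 TPM with no read in siblings, so that replicate 1 was the low sample. Over all genes, 343 had at least 1 TPM on average in homozygous seedlings and no read in any sibling sample, while 2 genes had at least 1 TPM in siblings and no read in homozygous seedlings outside the deletion, the higher at 1.94 TPM.

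Falls outside the deletion were named by the same rule. *COR15B*, a chloroplast protein gene of cold tolerance, was at 41.0, 10.8, 8.96 and 28.1 TPM against 256 to 422 TPM (-4.63 ± 0.48, adjusted p = 2.64e-06), and Col-0 seedlings were lower still at means of 13.3 and 0.202 TPM. *CORI3*, which jasmonate induces, was at 1.53 to 10.5 against 50.8 to 403 TPM (-5.36 ± 0.86, adjusted p = 1.29e-04). *TBL26*, of a family of wall acetyltransferases, was at 0.941 to 1.43 against 12.4 to 40.1 TPM (-4.87 ± 0.58, adjusted p = 9.68e-06). AT4G18440, an L-aspartase-like protein gene, was at 10.4 to 19.9 against 120 to 310 TPM (-4.58 ± 0.41, adjusted p = 7.40e-07), and its means of 15.4 and 12.2 TPM in Col-0 seedlings were close to those of the mutant. AT4G13577, of no stated function, fell from 28.9 to 46.7 TPM in siblings to 0.167 to 1.37 TPM (-6.70 ± 0.50, adjusted p = 1.67e-07).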

How the data were processed

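RNA was sequenced from stranded mRNA libraries of whole homozygous seedlings and of leaves. The deposited estimated counts and TPM per transcript were made by the authors with Salmon 1.6.0 against the primary transcripts of Araport11. Listed lengths equal RefSeq coding lengths for 99.3% of 27538 transcripts, so reads from UTRs did not count. Estimated counts were rounded to whole numbers, filtered with filterByExpr and fitted with edgeR 4.0.16 (quasi-likelihood, TMM, R 4.3.3) on 15 samples of 4 groups: homozygous seedlings and sibling, heterozygous and Col-0 leaves. A 22-sample fit added the Col-0 seedlings and tested the difference between the seedling-to-leaf contrasts of the mutant and of Col-0. Adjusted p-values are Benjamini-Hochberg over all tested genes, with a threshold of 0.05. Errors after log2 fold changes are SE. Fold bounds are ratios of TPM, not on the TMM scale, and take 3 counts per library as the floor. The test was tested on simulated data for homozygous seedlings against sibling leaves, with 50 genes changed at each size among 18961 tested. It called 5 at 1.5-fold, 32 at 2-fold, 50 at 4-fold and 50 at 8-fold, and made 11 false calls. The simulation gave every group the same leaf profile and all genes 1 spread, and it changed few genes, none of low count in leaves. It therefore does not cover the wide shift between these groups, uneven homozygous samples or genes unread in leaves.

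Genes named in the text were the 12 largest changes each way with a mean of at least 20 TPM and no overlap, the 6 largest differences of TPM, up to 5 genes of each list by adjusted p, deleted genes of at least 1 TPM with their paralogues, the 10 highest genes unread in siblings and the 6 largest differences from Col-0. *WUS*, *CLV3*, *TCP2*, *TCP4*, *NIMIN1*, *FMO1*, *NPR1*, *SARD4*, *PDIL1-2*, *CRT1a*, *ERF1*, *AOC3*, *FUS3*, *KCS20*, *NRT1.1*, *TCP3*, *TCP24* and the genes beside the breaks are outside this rule and were chosen after their values were seen. The members and lists were chosen with earlier results of these data known. Depth of 26640541 to 40016727 estimated counts limits genes of a few counts. Alternatives were RLE and total-count scaling, no filter, DESeq2 1.42.0, effective length offsets, glmTreat, the 8 samples alone, Col-0 leaves as control, a replicate block and each replicate left out.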

Additional observations from a re-analysis of the deposited data

Results flagged for a closer look

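One sample stood apart from the other 3 of its group in 28 of 282 groups of 4 looked at, where its gap to the nearest sample, divided by the group's range, passed Dixon's critical value, which chance passes in about 1 group of 20. Low sums were 0.407 TPM of seed and embryo genes in sibling replicate 2, 246 TPM of endoplasmic reticulum stress genes in sibling replicate 1 and 186 TPM of the relatives of deleted genes in homozygous replicate 1. Homozygous replicate 4 was low for *ECS1* at 1161 TPM and AT2G25510 at 622 TPM and high for *KNAT1* at 11.8 TPM, replicate 2 was low for *AOS* at 12.1 TPM, and replicate 3 was high for *JAZ6* at 26.8 TPM. Sibling replicate 3 was high for the jasmonate genes *AOS* at 348 TPM, *AOC1* at 273 TPM and *CORI3* at 403 TPM, and for *PYK10* at 7.06 TPM, *AAO2* at 3.52 TPM and *IPS1* at 3.16 TPM. Sibling replicate 4 was high for *PR1* at 49.7 TPM and *JUB1* at 0.407 TPM, and replicate 2 for *GRF3* at 7.53 TPM.

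The other such cases were single samples with reads of a gene unread in the rest of the group. Among deleted genes these were AT3G43520 at 0.0296 TPM, *BPM6* at 0.0151 TPM and *AAO2* at 0.00437 TPM in homozygous samples and *PRK3* at 0.0233 TPM in a sibling sample. Among other genes, all in sibling samples, they were *VTL5* at 0.0306 TPM, *PRP3* at 0.0441 TPM, *PER64* at 0.0171 TPM, *MLP34* at 0.0193 TPM, *BGLU21* at 0.0108 TPM, *BGLU22* at 0.0122 TPM and AT3G28510 at 0.0189 TPM.

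The seedling-to-leaf contrast differed between the mutant and Col-0 at both times for 2756 genes that were higher and 2393 that were lower. Of those named, the smaller of the 2 differences was -2.44 for *RBCS2B*, 1.6 for *PARP2*, 1.17 for *GMI1*, 0.77 for *XRI1*, 10.22 for *PR2*, 4.58 for *PAD4*, 7.65 for *BIP3* and 3.86 for *JUB1*, each called at both times in edgeR's test.

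In heterozygous leaves, which the main comparison does not use, the salicylic acid list summed to 263, 289 and 664 TPM in the 3 samples, above the highest control leaf sample at 249 TPM. No gene of the list was called there.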

How the results depend on the processing

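Directions and most calls held under RLE size factors, no filter, DESeq2, effective lengths, Col-0 leaves as control and the 8 samples alone. Exceptions among named genes were *ZIFL2* and *AAO3*, not called with Col-0 leaves as control, and *PR1*, *ECS1* and AT2G25510, not called there or in the 8 samples alone. Calls were gained by *FUS3* with Col-0 leaves as control (-1.39, adjusted p = 0.00995 in edgeR) and by *SARD4* and AT3G22235 in DESeq2 (adjusted p = 0.0329 and 0.0354). A test against a 2-fold change left 4421 genes, 2873 higher and 1548 lower, and 292 of 500 list members. Total counts as library sizes, chosen after seeing the data, gave 14507 higher, 2077 lower and 221 at least 4-fold lower, and 1530 genes lower than in Col-0 at both times. Without a leaf term 11401 genes differed from Col-0 in the evening, and 4341 were higher and 3684 lower at both times. Leaving out 1 replicate gave 11011 to 12221 called genes, and the log2 ratio of the deleted genes ran from -11.22 to -10.89, with p = 0.0571, the smallest that 3 against 4 samples allow in the exact permutation test. On total counts the log2 fold changes of *CAM7*, *SUS1*, *JAZ12*, *KCS20*, *TCP3* and *TCP24* turned to 0.23, 0.69, 0.18, 0.71, 0.13 and 0.015. Leaving out 1 replicate took *SUS1* from -0.24 to 0.12, *MT1A* from -0.11 to 0.45 and *KCS20* from -0.12 to 0.013, and none of these was called with all samples. Of 2204 values of 118 named genes, 2126 kept their direction and side of the threshold, 54 lost the call, 12 gained one and 12 turned. The causes were not tested. Low counts limit genes unread in siblings, whose fitted fold changes are not bounds.

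Same-numbered homozygous and sibling samples did not deviate together (mean correlation -0.014 against 0.0056 for other pairs), so the numbers only name samples. With the replicate number as a block 12297 genes were called, 6611 higher and 5686 lower, and 6636 and 6553 differed from Col-0 in the evening and the morning. The block ended the calls of *PR1*, *ECS1* and AT2G25510.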
